A study of Mus musculus with 12 samples.

Results

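NF-κB subunits and their inhibitors were examined in CD8+ T_prog_ cells with and without the histone demethylase UTX. The set held 10 genes named for their place in the pathway, the Rel family subunits *Rel*, *Rela*, *Relb*, *Nfkb1* and *Nfkb2* and the inhibitors *Nfkbia*, *Nfkbie*, *Nfkbiz*, *Bcl3* and *Tnfaip3*. All 10 were among the 25860 genes listed for RNA-seq, and 21 of the 23932 ATAC-seq peaks listed as differing between the genotypes carried 1 of these gene names. Cells came from pancreatic lymph nodes (pLNs) of NOD mice whose T cells express the transgenic 8.3 receptor for the β cell antigen IGRP. In *NOD-TCR 8.3 UTX TCD* mice, floxed alleles of *Kdm6a*, the X-linked gene encoding UTX, were deleted by Cre under the *Lck* promoter, which is active in T cells from the thymus onward. The parent line had been backcrossed from B6 to NOD, and the *NOD-TCR 8.3 WT* mice were the UTX-sufficient controls, which in the parent line are floxed littermates without Cre. Only female mice were used. The age at sorting for sequencing is not given in the sources used here. The labels describe the sorted cells as Ly108 positive without CXCR6, whereas the study methods give Ly108+CD39-. Each assay had 3 libraries per genotype.

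NF-κB transcription factors are dimers of Rel family proteins that bind κB sites in DNA. In resting T cells, inhibitory IκB proteins hold most dimers in the cytoplasm. Signals from the antigen receptor, CD28 or TNF family receptors activate the IKK kinases, the inhibitors are degraded and the dimers enter the nucleus. Several inhibitors, including IκBα and A20, are themselves induced by NF-κB and end the response, and in CD8+ T cells the pathway is known for its part in activation, survival and memory.

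The RNA-seq libraries held 146456724, 144503203 and 193568919 counted reads in WT replicates 1 to 3 and 61512402, 175462433 and 187275082 in UTX TCD replicates 1 to 3. UTX TCD replicate 1 was the shallowest library. Values below are normalized counts, which are reads per gene divided by 1 size factor per library. WT replicate 2 stood apart from the other WT libraries. The recovered reads differed by a chi-square per gene of 72.9 between WT replicates 1 and 2 and of 110.2 between WT replicates 2 and 3, against 29.1 between WT replicates 1 and 3. *Il7r*, the interleukin 7 receptor chain, had 79127 normalized counts in WT replicate 2 and 38077 and 37105 in WT replicates 1 and 3. Among UTX TCD libraries, replicate 3 was the farthest from the others, with a chi-square per gene of 32.8 against replicate 1 and 46.9 against replicate 2, compared with 12.6 between replicates 1 and 2.

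The targeted gene was measured first. *Kdm6a* had 28365, 28949 and 29172 normalized counts in the WT libraries and 24158, 24792 and 24579 in the UTX TCD libraries. Every UTX TCD library was below every WT library. The log2 fold change, given throughout as UTX TCD over WT on the log2(normalized count + 1) scale, was −0.23 ± 0.037 (SE, limma adjusted p = 0.00114). The count pools all exons of the gene, so it does not measure how completely the floxed part was removed.

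Across the 10 genes the differences were small. A gene was called where its limma adjusted p was under 0.05 and its log2 fold change exceeded 0.5 in either direction. With limma 0 of the 10 were called, compared with 17.6% of the 14459 genes tested. Genes called higher in UTX TCD cells were 10.5% of those tested and genes called lower were 7.05%. With edgeR and DESeq2 the count was also 0, where these tools called 17.6% and 16.8% of all genes tested. At an unadjusted limma p under 0.05 there were 6 of the 10 and 49.1% of all genes tested. At an adjusted p under 0.05 whatever the fold change, 6 of the 10 passed with limma, compared with 40.7% of all genes tested, and 6 passed with edgeR and with DESeq2, compared with 40.6% and 41.2%. By direction, 4 were higher and 2 lower with limma, where 20.2% and 20.5% of all genes tested were. *Rel*, *Nfkb1*, *Nfkb2* and *Nfkbie* were higher in UTX TCD cells, and *Nfkbia* and *Tnfaip3* were lower. For the same 6 genes the groups did not overlap, 4 with UTX TCD higher and 2 with UTX TCD lower, where 25.8% and 26.1% of all genes tested were separated in those directions. Without WT replicate 2 the number at a limma adjusted p under 0.05 was again 6, with *Rela* passing and *Nfkbie* not. Without UTX TCD replicate 3 it was 4, with *Nfkb2* and *Nfkbie* not passing. Bulk RNA cannot tell a change in the share of cells that express a gene from a change in RNA per cell.

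**Figure D1:**
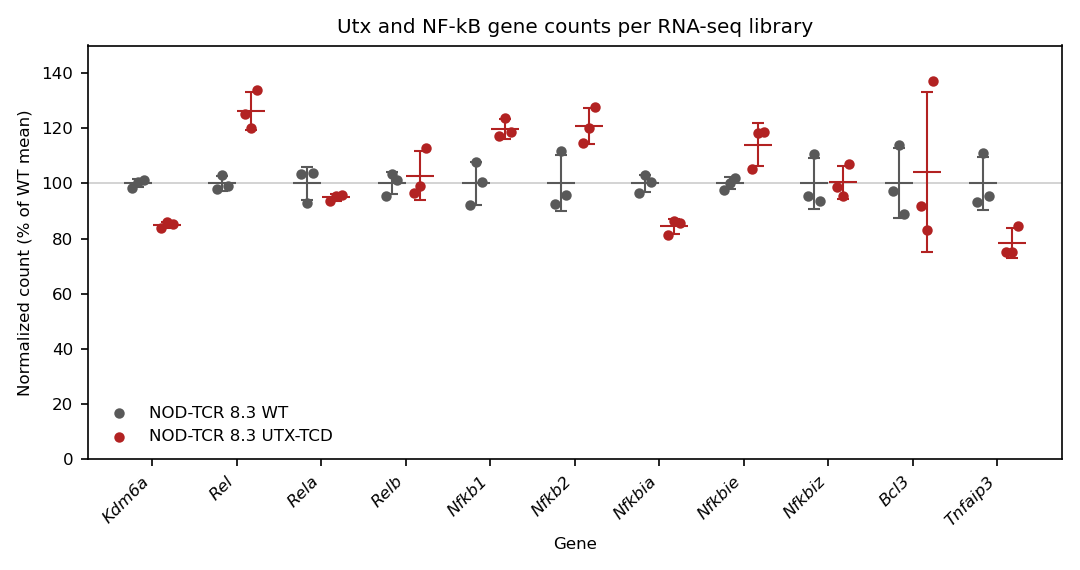
Normalized RNA-seq counts of *Kdm6a* and the 10 NF-κB genes in each library, as a percentage of the WT mean of that gene. Points are libraries, horizontal marks are means and bars are SD (n = 3 per genotype). *Rel* lies at 4209 to 4423 normalized counts in WT and 5160 to 5740 in UTX TCD, whereas the groups overlap for *Bcl3*.

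Among the subunits with their own activation domain, *Rel* differed and *Rela* and *Relb* did not pass the test. *Rel* encodes c-Rel, a subunit abundant in lymphocytes that is induced by antigen receptor signals. It had 4209, 4423 and 4249 normalized counts in WT libraries and 5376, 5160 and 5740 in UTX TCD libraries. The groups did not overlap, and the UTX TCD mean was 26.4% higher, a log2 fold change of 0.34 ± 0.054 (SE, limma adjusted p = 0.00125).

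*Rela* encodes p65, the usual partner of p50 in the canonical pathway. It had 13709, 12324 and 13737 normalized counts in WT libraries and 12385, 12642 and 12711 in UTX TCD libraries. WT replicate 2 fell below all 3 UTX TCD libraries, so the groups overlapped, with a log2 fold change of −0.07 ± 0.051 (SE, limma adjusted p = 0.282). Without WT replicate 2 it was −0.13 with a limma adjusted p of 0.0361, and over all alternatives the adjusted p ranged from 0.0361 to 0.859.

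*Relb* encodes the partner of p52 in the noncanonical pathway. It had 3514, 3796 and 3718 normalized counts in WT libraries and 3552, 3636 and 4152 in UTX TCD libraries. The groups overlapped, with the highest value in UTX TCD replicate 3. The log2 fold change was 0.04 ± 0.069 (SE, limma adjusted p = 0.70). Without UTX TCD replicate 3 the log2 fold change was −0.03.

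Both precursor subunits were higher in UTX TCD cells. *Nfkb1* encodes p105, which is processed to the DNA-binding subunit p50 and also acts as an inhibitor through its ankyrin repeats. It had 48308, 56467 and 52692 normalized counts in WT libraries and 61451, 65023 and 62224 in UTX TCD libraries. Every UTX TCD library exceeded every WT library, with a mean 19.8% higher and a log2 fold change of 0.26 ± 0.059 (SE, limma adjusted p = 0.00708).

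*Nfkb2* encodes p100, which restrains RelB until it is processed to p52. It had 7459, 8991 and 7717 normalized counts in WT libraries and 9231, 9667 and 10274 in UTX TCD libraries. WT replicate 2 came closest to the UTX TCD values without overlapping them. The log2 fold change was 0.27 ± 0.074 (SE, limma adjusted p = 0.0161). The adjusted p passed 0.05 without WT replicate 1 (0.0637), WT replicate 3 (0.0523) or UTX TCD replicate 3 (0.0512), and ranged from 0.00211 to 0.0643 over all alternatives. Exons of *Psd* and of 1 further gene on the opposite strand cover 7.08% and 12.6% of its exon bases, and without a stated strand setting their reads cannot be told apart.

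The classical inhibitors moved in opposite directions. *Nfkbia* encodes IκBα, the inhibitor that is degraded first and resynthesized under NF-κB control. It had 15072, 16058 and 15681 normalized counts in WT libraries and 12691, 13478 and 13339 in UTX TCD libraries. All UTX TCD libraries were below all WT libraries, and the log2 fold change was −0.24 ± 0.044 (SE, limma adjusted p = 0.0023).

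*Nfkbie* encodes IκBε, a slower acting inhibitor of RelA and c-Rel dimers. It had 4556, 4672 and 4760 normalized counts in WT libraries and 4899, 5518 and 5534 in UTX TCD libraries. The groups did not overlap, although UTX TCD replicate 1 was close to the WT values. limma gave a log2 fold change of 0.19 ± 0.059 (SE, limma adjusted p = 0.0318). The adjusted p passed 0.05 when WT replicate 1 (0.109), WT replicate 2 (0.0583), WT replicate 3 (0.0551), UTX TCD replicate 2 (0.123) or UTX TCD replicate 3 (0.0802) was left out, and ranged from 0.00831 to 0.123 over all alternatives.

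The nuclear IκB proteins did not pass the test. *Nfkbiz* encodes IκBζ, which binds p50 in the nucleus and can activate transcription. It had 9667, 11205 and 9478 normalized counts in WT libraries and 9987, 9668 and 10834 in UTX TCD libraries. The groups overlapped, and the log2 fold change was 0.01 ± 0.071 (SE, limma adjusted p = 0.931), with its sign turning under TMM scaling.

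*Bcl3* encodes a nuclear protein that binds p50 and p52 dimers. It had 4104, 4809 and 3756 normalized counts in WT libraries and 3882, 3511 and 5788 in UTX TCD libraries. UTX TCD replicate 3 was the highest of the 6 and UTX TCD replicate 2 the lowest. The log2 fold change was 0.03 ± 0.169 (SE, limma adjusted p = 0.902). Without UTX TCD replicate 3 it was −0.19, with a limma adjusted p of 0.19, and over all alternatives the adjusted p ranged from 0.19 to 0.97.

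*Tnfaip3* encodes A20, a ubiquitin-editing enzyme that limits signals from TNF and antigen receptors. It had 11553, 13769 and 11841 normalized counts in WT libraries and 9308, 9319 and 10490 in UTX TCD libraries. The groups did not overlap, and the UTX TCD mean fell by 21.7%. On the log2 scale the fold change was −0.35 ± 0.075 (SE, limma adjusted p = 0.00553), the largest absolute value among the 10 genes in this fit. *Rel* had the larger value with scaling to the same sum (0.40 against −0.29) and without WT replicate 2 (0.36 against −0.27), UTX TCD replicate 1 (0.34 against −0.32) or UTX TCD replicate 2 (0.37 against −0.32). The 3 tested genes whose log2 values, centred on their own means, lay closest to those of *Tnfaip3* over the 6 libraries were *mt-Rnr2*, *Retreg1* and *Chchd2*, with root mean square differences of 0.02, 0.04 and 0.04.

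Levels of different genes were compared per kilobase of merged exons. In WT libraries *Nfkb1* was the most abundant of the 10, at 12728 ± 990 normalized counts per kb (SD, n = 3). *Nfkbia* followed at 9888 ± 315 (SD, n = 3) and *Rela* at 4881 ± 297 (SD, n = 3) normalized counts per kb. *Tnfaip3*, *Nfkbiz* and *Bcl3* lay at 2696 ± 262, 2445 ± 229 and 2283 ± 290 normalized counts per kb (SD, n = 3), and neighbours within these 3 did not differ beyond their spread. The same held for *Nfkbie* and *Nfkb2*, at 1915 ± 42.1 and 1909 ± 194 (SD, n = 3). *Relb* had 1663 ± 66.0 and *Rel*, the least abundant, 575.1 ± 15.2 normalized counts per kb (SD, n = 3).

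Of the peaks assigned to the 10 genes by their nearest promoter, 10 were higher and 11 lower in UTX TCD cells, whereas 68.8% of all listed peaks were higher and 31.2% lower. These are differences between the authors' mean log2 read concentrations per genotype, with no value per library and so no test here. Peaks carried the names of 7 of the genes. *Rela*, *Relb* and *Nfkbie* had none in the list. The median difference was −0.24 over the 21 peaks and 0.49 over all listed peaks. An absolute difference over 0.5 was seen in 12 of the 21 peaks and in 73.1% of all listed peaks, and one over 1 in 2 of the 21 and in 29.3%. The subunit genes had 6 higher and 3 lower peaks, and the inhibitor genes had 4 higher and 8 lower.

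*Nfkb1* had 6 peaks, all in its introns on chromosome 3 of mm10. The highest difference among the 21 peaks was in intron 7 at chr3:135621295-135621695, where the authors' mean was 6.53 in WT and 8.16 in UTX TCD cells, a log2 difference of 1.63. In intron 4, chr3:135662449-135662849 differed by 0.64, and in intron 1 chr3:135677024-135677424, chr3:135675474-135675874 and chr3:135689052-135689452 differed by 0.72, 0.45 and 0.40 in log2 concentration. The peak in intron 13 at chr3:135607408-135607808 was lower in UTX TCD cells, with a log2 difference of −0.61. *Nfkb1* RNA was also higher in UTX TCD cells, as given above.

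The other subunit genes had fewer peaks. For *Nfkb2*, the promoter peak at chr19:46304526-46304926 had authors' means of 11.43 in WT and 11.19 in UTX TCD cells. A further peak at chr19:46314879-46315279 lay in the body of the neighbouring gene *Psd* and differed by 0.77 in log2 concentration. The intergenic peak assigned to *Rel* at chr11:23818750-23819150, 48.0 kb from the start site, differed by −0.59 although *Rel* RNA was higher.

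Peaks of the inhibitor genes were intergenic except for 1 at the *Nfkbiz* promoter. The lowest difference among the 21 peaks was at chr12:55477479-55477879, 15.0 kb from the *Nfkbia* start site, where the authors' mean was 6.26 in WT and 5.07 in UTX TCD cells, a log2 difference of −1.19. The other *Nfkbia* peaks, at chr12:55482741-55483141 and chr12:55466388-55466788, differed by −0.32 and 0.42 in log2 concentration. For *Tnfaip3*, chr10:19066798-19067198, chr10:18964793-18965193 and chr10:19043893-19044293 differed by −0.53, −0.30 and 0.23. The direction was thus mixed at both genes whose RNA was lower.

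*Nfkbiz* and *Bcl3*, whose RNA did not pass the test, also had listed peaks. For *Nfkbiz*, chr16:55804799-55805199, chr16:55798775-55799175 and chr16:55787695-55788095 differed by −0.95, −0.91 and −0.59 in log2 concentration. The promoter peak at chr16:55838948-55839348 and the intergenic peak at chr16:55754373-55754773 differed by 0.28 and 0.27. The *Bcl3* peak at chr7:19836847-19837247, 14.3 kb from the start site, differed by −0.73.

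**Figure D2:**
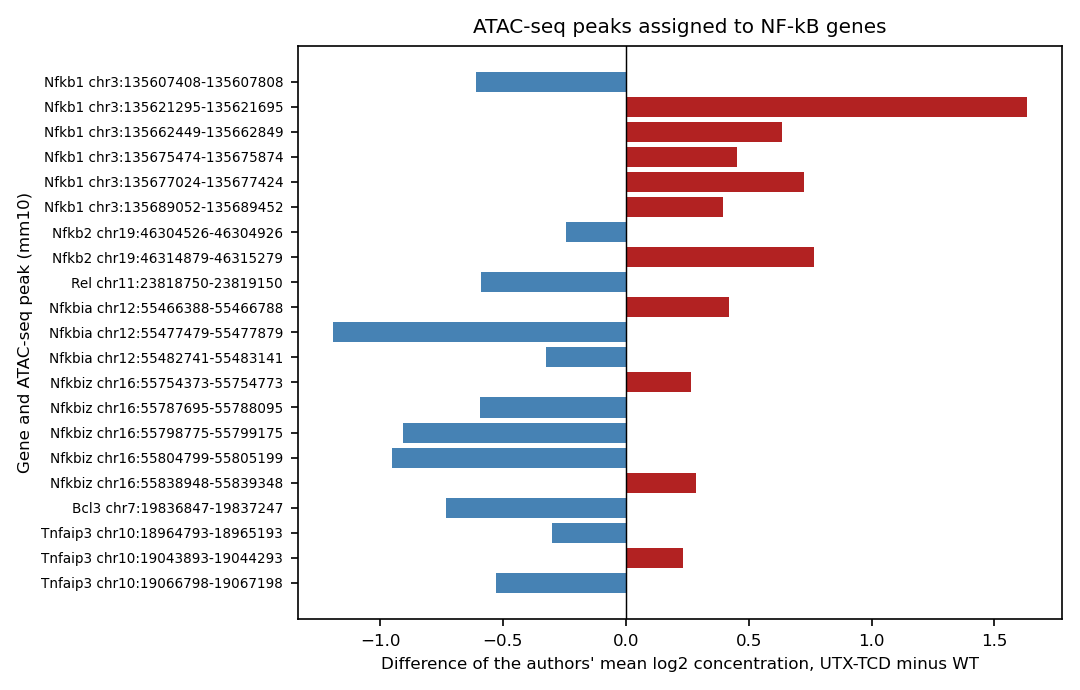
Difference between the authors' mean log2 read concentrations, UTX TCD minus WT, for each ATAC-seq peak assigned to an NF-κB gene, with the gene and mm10 position on the vertical axis. Bars to the right are higher in UTX TCD cells. The bars run from −1.19 at *Nfkbia* to 1.63 at *Nfkb1*.

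The bases at the middle of the peaks with the highest and the lowest difference are shown because they mark the extremes of the set. Both are from the plus strand of the reference GRCm38.p6, to which the mm10 positions apply, at chr3:135621395-135621595 and chr12:55477579-55477779. Neither peak holds the κB consensus, and so nothing is in capitals.
Nfkb1 intron 7 peak: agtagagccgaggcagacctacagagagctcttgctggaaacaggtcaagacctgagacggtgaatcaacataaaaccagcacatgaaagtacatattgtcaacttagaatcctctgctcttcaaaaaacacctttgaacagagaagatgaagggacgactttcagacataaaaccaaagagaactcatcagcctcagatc
Nfkbia intergenic peak: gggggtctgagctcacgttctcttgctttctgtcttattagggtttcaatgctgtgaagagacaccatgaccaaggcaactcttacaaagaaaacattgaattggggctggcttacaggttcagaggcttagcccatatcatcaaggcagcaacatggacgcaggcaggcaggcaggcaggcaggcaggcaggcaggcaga

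The κB consensus motif was searched on both strands. It was found in 3 of the 21 peaks, against 9.98% of all listed peaks read, namely both *Nfkb2* peaks and the *Tnfaip3* peak at chr10:18964793-18965193. RefSeq promoter windows, 250 bases before to 50 after a start site, were available for 7 of the 10 genes. *Nfkb1*, *Relb* and *Nfkbiz* had no window, so their promoters were not searched. The 7 genes had 10 windows, since some have several start sites. The motif was in 8 of the 10 windows and in 8.46% of all promoter windows. The 8 belonged to *Rel*, *Nfkb2*, *Nfkbia*, *Nfkbie*, *Bcl3* and *Tnfaip3*, and 2 of the 3 windows of *Nfkb2* overlap in part. The members were chosen as pathway genes, and a match describes letters and not binding.

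*Nfkb1* passed the adjusted p limit in RNA but had no promoter window. The 250 bases before the start site are shown for genes that passed that limit and held a match there. Matches of κB on either strand are in capitals, and each sequence is written 5′ to 3′ on the strand of its gene in GRCm38.p6. *Nfkb2* lies on the plus strand at chr19:46304487-46304736, the window under its promoter peak, and *Nfkbie* on the plus strand at chr17:45555450-45555699. *Rel*, *Nfkbia* and *Tnfaip3* lie on the minus strand at chr11:23770970-23771219, chr12:55492648-55492897 and chr10:19015411-19015660.
Nfkb2: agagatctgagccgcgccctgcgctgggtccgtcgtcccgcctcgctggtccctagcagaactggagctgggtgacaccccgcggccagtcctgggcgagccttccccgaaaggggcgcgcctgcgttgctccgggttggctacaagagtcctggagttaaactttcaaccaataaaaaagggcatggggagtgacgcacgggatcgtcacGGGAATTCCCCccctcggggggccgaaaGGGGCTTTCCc
Nfkbie: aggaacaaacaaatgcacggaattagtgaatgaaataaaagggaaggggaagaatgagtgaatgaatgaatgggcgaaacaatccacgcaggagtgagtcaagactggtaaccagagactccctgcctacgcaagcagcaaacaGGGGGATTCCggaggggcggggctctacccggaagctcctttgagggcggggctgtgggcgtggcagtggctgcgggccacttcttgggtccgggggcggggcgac
Rel: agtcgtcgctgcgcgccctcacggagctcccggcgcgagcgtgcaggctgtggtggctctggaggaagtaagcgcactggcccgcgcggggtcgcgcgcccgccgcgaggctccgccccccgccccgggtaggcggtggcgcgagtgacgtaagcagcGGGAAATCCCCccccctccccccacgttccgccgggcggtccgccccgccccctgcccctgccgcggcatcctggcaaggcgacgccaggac
Nfkbia: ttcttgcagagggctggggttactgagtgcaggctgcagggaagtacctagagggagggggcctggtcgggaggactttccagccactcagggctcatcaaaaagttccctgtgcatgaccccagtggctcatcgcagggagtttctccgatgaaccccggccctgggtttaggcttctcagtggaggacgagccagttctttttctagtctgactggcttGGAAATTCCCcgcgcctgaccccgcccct
Tnfaip3: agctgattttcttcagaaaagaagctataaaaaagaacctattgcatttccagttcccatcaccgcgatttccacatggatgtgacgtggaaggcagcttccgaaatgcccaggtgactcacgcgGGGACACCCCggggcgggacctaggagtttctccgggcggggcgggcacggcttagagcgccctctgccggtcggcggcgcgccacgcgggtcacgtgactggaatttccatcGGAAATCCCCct

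Other parts of the pathway are given from lists of genes by role. A list of 11 genes held the IKK and NIK kinases with related and upstream kinases, the IKK subunit without kinase activity and the TAB adaptors. In it 0 were called, with limma, edgeR and DESeq2 alike, where limma called 17.6% of all genes tested. At an adjusted limma p under 0.05, 1 was higher and 2 were lower, compared with 20.2% and 20.5% of all genes tested, and 4 had an unadjusted p under 0.05, compared with 49.1%. The median log2 fold change of the list was −0.04, compared with 0.00 over all genes tested. With scaling to the same sum these medians were 0.02 and 0.06.

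Of 12 TRAF, cIAP, linear ubiquitin and related signalling genes, 1 (8.33%) was called, and it fell. Of all genes tested 17.6% were called in either direction and 7.05% were called lower. The called gene *Traf5*, an adaptor of TNF family receptors, fell from 5696, 4722 and 5611 to 3475, 3542 and 3342 normalized counts (log2 fold change −0.62, limma adjusted p = 0.000227). In a list of 9 deubiquitinases, ABIN proteins and related regulators, 2 (22.2%) were called and both rose. Of all genes tested 17.6% were called in either direction and 10.5% were called higher. *Usp18*, an interferon-induced protease that removes ISG15, had 4520, 3652 and 3886 normalized counts in WT libraries and 17460, 15954 and 11632 in UTX TCD libraries (log2 fold change 1.89, limma adjusted p = 1.51e-05). *Tnip2*, which encodes the A20-binding protein ABIN-2, had a log2 fold change of 0.54 (limma adjusted p = 0.00225), which was 0.49 without WT replicate 1 and 0.45 without UTX TCD replicate 3, below the limit of a call, and it was not called at a fold limit of 1.5.

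Of 16 receptors, adaptors and IRAK kinases of the TNF and IL-1 families tested, 2 (12.5%) were called and both fell. Of all genes tested 17.6% were called in either direction and 7.05% were called lower. The median log2 fold change of the list was 0.03, with 10 values above 0 and 6 below. *Tnfrsf1b*, which encodes TNF receptor 2, had 10808, 10874 and 10813 normalized counts in WT libraries and 4202, 4217 and 4814 in UTX TCD libraries (log2 fold change −1.30, limma adjusted p = 8.43e-07). *Tnfrsf18*, which encodes the costimulatory receptor GITR, had a log2 fold change of −0.96 (limma adjusted p = 1.28e-05). Of 9 TNF family ligands, 4 were higher and 1 was lower at a limma adjusted p under 0.05, where 20.2% and 20.5% of all genes tested were. Both *Tnfsf14* and *Lta* (22.2%) were called higher, where 10.5% of all genes tested were and 17.6% were called in either direction. Their log2 fold changes were 0.55 and 0.52 (limma adjusted p = 0.0109 and 0.00228). *Tnfsf14* fell to 0.45 without WT replicate 1, and *Lta* to 0.47 without WT replicate 2 and 0.43 without UTX TCD replicate 1, each below the limit of a call. The list had 1 call without each of these 3 libraries, 4 without UTX TCD replicate 2 and 0 at a fold limit of 1.5.

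Of 29 tested genes commonly used as NF-κB targets, 3 were called higher and 3 lower (20.7% in all), where 10.5% and 7.05% of all genes tested were (17.6% in all), with a median log2 fold change of 0.04. *Cxcl10*, a chemokine also induced by interferons, had 147, 330 and 170 normalized counts in WT libraries and 724, 689 and 709 in UTX TCD libraries (log2 fold change 1.80, limma adjusted p = 0.000669). *Ier3*, a stress-induced survival gene, had a log2 fold change of −1.34 (limma adjusted p = 6.29e-05). *Ccl3* averaged 3.51 normalized counts in WT and 18.56 in UTX TCD libraries. It reached the filter mean of 10 only through UTX TCD libraries. Its log2 fold change was 2.27 (limma adjusted p = 0.00811) at no more than 20.2 normalized counts in any library. *Ccl5* had one of −1.34 (limma adjusted p = 0.0325), its groups overlapped, and the call was not made by edgeR (adjusted p = 0.0731), by DESeq2 (adjusted p = 0.130) or by limma without trend (adjusted p = 0.108), or with limma without WT replicate 1 (adjusted p = 0.0579), WT replicate 2 (adjusted p = 0.112), UTX TCD replicate 1 (adjusted p = 0.0830) or UTX TCD replicate 2 (adjusted p = 0.105). A list of 4 further genes held *Nfkbib*, *Nfkbid*, *Nfkbil1* and *Ikbip*, which encodes a protein that binds IKKβ and is not an IκB. In it 0 were called with limma, edgeR or DESeq2, where these called 17.6%, 17.6% and 16.8% of all genes tested. An unadjusted limma p under 0.05 was seen for 3 of the 4 and for 49.1% of all genes tested. *Nfkbib* and *Nfkbil1* passed the adjusted limit, with log2 fold changes of −0.21 and 0.46 (limma adjusted p = 0.0171 and 0.0179), where 40.7% of all genes tested did, and the groups of all 4 did not overlap, 2 being higher and 2 lower in UTX TCD cells, where 25.8% and 26.1% of all genes tested were without overlap in these directions. *Nfkbil1* was called with a log2 fold change of 0.58 without WT replicate 2, 0.56 without UTX TCD replicate 1 and 0.53 with scaling to the same sum, and did not pass the adjusted limit without WT replicate 1 (limma adjusted p = 0.0684), WT replicate 3 (limma adjusted p = 0.0507) or UTX TCD replicate 3 (limma adjusted p = 0.0543), or with limma without trend (adjusted p = 0.0614).

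Of 20 genes that respond within minutes to stimulation or cell handling, 4 were called higher and 4 lower with limma (40% in all). Over all genes tested 10.5% and 7.05% were (17.6% in all). At a limma adjusted p under 0.05, 6 were higher and 6 lower (60% in all), and 8 did not pass. The shares of all genes tested were 20.2% and 20.5% (40.7% in all). The median log2 fold change of the list was −0.06, and 0.0017 with scaling to the same sum. *Atf3*, *Nr4a2* and *Jun*, which encode inducible transcription factors, had log2 fold changes of 1.74, 1.63 and 0.86 (limma adjusted p = 0.00703, 0.000935 and 0.000105), and the phosphatase gene *Dusp2* one of −0.96 (limma adjusted p = 2.14e-05). *Atf3* had 4.94 to 6.10 normalized counts in WT and 16.2 to 29.2 in UTX TCD libraries. It reached the filter mean of 10 only through UTX TCD libraries. The summed level of the list was 200805, 214158 and 205825 normalized counts in WT and 200454, 206168 and 196132 in UTX TCD libraries, with *Hsp90aa1* the most abundant. This sum overlapped between genotypes, and without *Hsp90aa1* it did not, with 139431, 145298 and 142889 in WT and 127700, 131576 and 131570 in UTX TCD libraries. Their part in the NF-κB differences was not tested.

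Markers of the sorted cells were high in every library. The 6 CD8 T cell genes summed to 875499, 829408 and 847571 normalized counts in WT and 869077, 841632 and 776019 in UTX TCD libraries, with *Cd8a* the most abundant. At a limma adjusted p under 0.05, 1 of the 6 was higher and 3 were lower, where 20.2% and 20.5% of all genes tested were. Their log2 fold changes ran from −0.37 to 0.17, and 0 were called, where 17.6% of all genes tested were. *Tcf7* led the progenitor genes. *Cxcr6*, which the labelled gate excludes, had 12757, 9619 and 13724 normalized counts in WT and 5286, 5994 and 5695 in UTX TCD libraries. *Entpd1*, the gene of CD39, which the gate in the methods excludes, had 10.9, 29.6 and 11.4 in WT and 4.50, 12.8 and 4.42 in UTX TCD libraries.

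Markers of other cell types were summed in the same way. Over all genes tested 10.5% were called higher and 7.05% lower, and 20.2% were higher and 20.5% lower at a limma adjusted p under 0.05, and the counts in this and the next paragraph stand beside these shares. The 7 B cell genes reached 3043, 2549 and 2890 normalized counts in WT and 1505, 1345 and 1578 in UTX TCD libraries, led by *Cd79b*. Without *Cd79b* the other 6 reached 541, 619 and 425 in WT and 857, 713 and 1108 in UTX TCD libraries. Of 6 B cell genes tested, *Cd79b* was called lower and *Cd22* and *Ms4a1* higher, with log2 fold changes of −1.98, 1.90 and 1.72 (limma adjusted p = 1.47e-05, 0.000535 and 0.0367). *Ms4a1* was not called without WT replicate 1 (limma adjusted p = 0.119), WT replicate 3 (limma adjusted p = 0.0889), UTX TCD replicate 2 (limma adjusted p = 0.0681) or UTX TCD replicate 3 (limma adjusted p = 0.112), or with limma without trend (adjusted p = 0.0831). *Pax5*, a factor that B cells require, did not exceed 11.1 normalized counts. The 10 myeloid and dendritic genes reached 293, 306 and 250 in WT and 279, 297 and 323 in UTX TCD libraries, led by *Xcr1*, with *S100a8* and *S100a9* at 0 in all 6 libraries. Of 4 tested, *Csf1r* was called, lower, with a log2 fold change of −1.85 (limma adjusted p = 0.00496) and groups that did not overlap. *Csf1r* averaged 24.2 normalized counts in WT and 6.07 in UTX TCD libraries, and reached the filter mean of 10 only through WT. The 5 acinar genes reached 201, 180 and 151 in WT and 144, 124 and 114 in UTX TCD libraries, led by *Prss2*, and without *Prss2* 20.7 to 25.9 in WT and 5.90 to 10.4 in UTX TCD libraries. Neither sum overlapped between genotypes, and of 2 acinar genes tested *Cela1* was called lower (log2 fold change −1.73, limma adjusted p = 0.00683). *Cela1* averaged 23.0 normalized counts in WT and 6.40 in UTX TCD libraries, and also reached the filter mean only through WT. Each of these sums was a small part of the CD8 T cell sum.

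The 4 NK cell genes reached 13560, 15529 and 13310 normalized counts in WT and 19261, 19193 and 26950 in UTX TCD libraries, led by *Eomes*, a factor also made by CD8+ T cells. Without *Eomes* the other 3 reached 190, 214 and 134 in WT and 162, 107 and 121 in UTX TCD libraries, the median log2 fold change of the 3 tested NK genes was −0.35, *Eomes* was called (log2 fold change 0.62, limma adjusted p = 0.00388, and 0.46 without UTX TCD replicate 3, below the limit of a call) and the other 2 tested were not, and *Ncr1* did not exceed 6.93 normalized counts. The 5 stromal genes reached 32044, 29933 and 32205 in WT and 38111, 38332 and 34024 in UTX TCD libraries, led by *Pecam1*, with *Ccl21a* at 0 in all 6 libraries, and without *Pecam1* 871, 568 and 878 in WT and 1055, 1095 and 956 in UTX TCD libraries. Neither stromal sum overlapped between genotypes. Of 4 stromal genes tested, 2 were higher at a limma adjusted p under 0.05 and *Col1a2* was called, with a log2 fold change of 0.81 (limma adjusted p = 0.0222), which was 0.53 without WT replicate 2, and it was not called without UTX TCD replicate 2 (limma adjusted p = 0.0805) or with limma without trend (adjusted p = 0.0678). The 3 CD4 T cell genes reached 475, 373 and 442 in WT and 373, 350 and 344 in UTX TCD libraries, led by *Foxp3*. Without *Foxp3* they reached 158, 138 and 169 in WT and 67.5, 86.5 and 64.1 in UTX TCD libraries, with no overlap. *Cd4* and *Zbtb7b* were called lower, with log2 fold changes of −0.74 and −1.85 (limma adjusted p = 0.0384 and 0.00950). *Cd4* was not called without WT replicate 1 (limma adjusted p = 0.0988), WT replicate 2 (limma adjusted p = 0.101), WT replicate 3 (limma adjusted p = 0.0633), UTX TCD replicate 1 (limma adjusted p = 0.0619) or UTX TCD replicate 3 (limma adjusted p = 0.0798), with DESeq2 (adjusted p = 0.0573) or with scaling to the same sum (limma adjusted p = 0.0543). The 6 T mediator genes reached 28790, 32269 and 27931 in WT and 23454, 21995 and 23323 in UTX TCD libraries, led by *Id2*. Without *Id2* they reached 13331, 10090 and 14301 in WT and 5648, 6383 and 6048 in UTX TCD libraries. Most of this smaller sum was *Cxcr6*, given above, and *Id2* itself overlapped between genotypes. The genotypes overlapped in neither T mediator sum. Of 5 T mediator genes tested 2 were called lower and 3 were lower at a limma adjusted p under 0.05, beside 7.05% and 20.5% of all genes tested. The part of any of these cells in the NF-κB differences was not tested.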

How the data were processed

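RNA-seq and ATAC-seq each had 3 samples per genotype, grouped by the labels. For RNA-seq the authors ran FastQC, aligned reads to mm10 with HISAT2 2.2.1, counted them with featureCounts and divided the counts by DESeq2 size factors, and this normalized signal per gene and library was deposited. The gene annotation and strand setting are not given in the sources used here. For ATAC-seq the authors trimmed reads with Cutadapt, aligned them with Bowtie2, removed duplicates with Picard, called peaks with MACS2, compared genotypes with DiffBind and annotated peaks with HOMER. A Tn5 shift is not given in the sources used here. The deposited ATAC-seq values used were log2 mean concentrations per genotype, pooled over libraries. The authors' own comparison columns hold log2 fold changes with standard errors and adjusted p-values per gene, and fold, p-value and FDR per peak, and were not used.

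A filter kept genes whose mean reached 10 normalized counts across all 6 libraries. A gene could therefore pass through the libraries of a single genotype, as *Ccl3*, *Atf3*, *Csf1r*, *Cela1* and a called T mediator gene did. The test was limma 3.58.1 under R 4.3.3, with lmFit and a trended eBayes step, on log2(normalized count + 1), which understates changes of low genes, with genotype as the only term and Benjamini-Hochberg adjustment over all genes tested. It was first tested on simulated data, whose results are not given here. Each library's values were whole multiples of 1 step, and 100% came out whole reads within a tolerance of 0.01, on which edgeR 4.0.16 called 2541 genes and DESeq2 1.42.0 called 2422, against 2538 with limma. An exact permutation test of 3 against 3 cannot give a p below 0.1. The study methods call the ATAC-seq replicates biological and do not say so for RNA-seq, so RNA-seq p-values measure the spread between these samples, which may be technical. Depth ranged from 61512402 to 193568919 counted reads. Alternatives covered the pseudocount, filter, scaling, test, replicate block, fold limit, each library left out, and the size and distance of peaks. Merged exon lengths came from GENCODE M21, gene and promoter positions from RefSeq on GRCm38.p6, and sequences were read with pysam 0.24.0. Named genes were the 10 members, *Kdm6a*, up to 4 called genes with the largest absolute log2 fold change per list, the most abundant gene of each marker list, 3 genes most similar to the member with the largest change in the main fit (*Tnfaip3*, below *Rel* in 4 alternatives), and every member peak. *Il7r*, *Pax5*, *S100a8*, *S100a9*, *Cxcr6*, *Entpd1* and *Psd*, with *Ncr1*, *Ccl21a*, *Cd22*, *Ms4a1*, *Nfkbib*, *Nfkbid*, *Nfkbil1*, *Ikbip*, *Cd4*, *Zbtb7b*, *Csf1r*, *Col1a2* and *Cela1*, were named after their values were seen. The members and lists were chosen with earlier results of these data known. Protein sequences were not analysed here, and the results of 1 pathway list and 1 marker list are not reported here.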

Additional observations from a re-analysis of the deposited data

How the results depend on the processing

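No member passed both limits of a call under any alternative run. The number at an adjusted p under 0.05 was 6 with limma and stayed at 6 with edgeR, DESeq2, TMM scaling, scaling to the same sum, both pseudocounts and both filters. It was 4 with limma without trend and between 4 and 6 when a library was left out. *Rel*, *Nfkb1*, *Nfkbia*, *Tnfaip3* and *Kdm6a* stayed under 0.05 in all 16 alternatives each. Signs turned for genes that did not pass the test. *Nfkbiz* was −0.0086 with TMM scaling and between −0.038 and 0.085 with a library left out, *Bcl3* between −0.19 and 0.17, and *Relb* between −0.032 and 0.081. The list of deubiquitinases, ABIN proteins and related regulators had 1 call at a fold limit of 1.5 and 1 to 2 with a library left out. The ligand list had 0 calls at a fold limit of 1.5 and 1 to 4 with a library left out. The list of *Nfkbib*, *Nfkbid*, *Nfkbil1* and *Ikbip* had 1 call with scaling to the same sum and 0 to 1 with a library left out. The cause was not tested. Of the 21 peaks, 12 had an absolute difference over 0.5, 2 over 1 and 2 lay within 1 kb of the start site, and of the 10 higher peaks 4, 1 and 1 did. Same-numbered libraries did not pair, with correlations of deviations of 0.305, −0.20 and 0.0897, and not every library correlated best with its own number. The replicate block gave 6 members at that adjusted p limit and 0 calls. The lowest member value in any library was 3511 normalized counts, far above the value of a single read.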
